A study of Mus musculus with 18 samples.

Results

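The 6 genes described here, Mknk2, Narf, Frat1, Nt5dc2, Cd320 and Zfp395, were picked from the 24485 genes listed in every library because JQ1 raised them strongly, or because JQ1 brought back a transcript that lipopolysaccharide (LPS) had lowered. The values that picked them are the levels in the libraries without IL-10, so the differences that involve JQ1, or LPS alone, are given below as a description and carry no test for these 6 genes. The IL-10 libraries did not enter this rule, although the genes were chosen with earlier results of these data known. The comparison of LPS + IL-10 with IL-10 is therefore the one test on the 6 genes whose compared libraries did not enter the rule. Its error was still estimated from all 18 libraries, those of the rule included.

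RNA-seq was carried out on bone marrow-derived macrophages (BMDMs), which are macrophages grown from marrow in medium conditioned by L929 cells. All cells came from male Il10-/- mice on the C57BL/6J background, aged 12 weeks, and no wild-type cells stood beside them. The 18 libraries formed 6 groups of 3, with 1 library from each of 3 mice in every group. For 12 hours cells received 500 nM (+)-JQ1, 10 ng/mL IL-10 or neither, and then 50 ng/mL LPS or buffer for 4 hours. The groups are called unstimulated, JQ1, IL-10, LPS, LPS + JQ1 and LPS + IL-10. Cells without pretreatment are untreated by their labels, although a vehicle control is named in the methods. These are cells grown in culture, and JQ1 was present at 1 dose.

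JQ1 is a small molecule that occupies the bromodomains of the BET proteins and so releases these readers of acetylated histones from chromatin. LPS is a component of the bacterial outer membrane that is sensed by TLR4 and sets off a wide inflammatory program in macrophages, during which many transcripts of resting cells are lost. IL-10 is an anti-inflammatory cytokine that acts on macrophages through STAT3. The 6 genes belong to no common pathway. Mknk2 encodes MNK2, a kinase that is activated by MAP kinases and phosphorylates the cap-binding translation factor eIF4E. Narf encodes a nuclear protein that binds prenylated prelamin A and resembles iron-only hydrogenases. Frat1 encodes a protein that binds the kinase GSK3 and favours Wnt signalling. Nt5dc2 encodes a member of the 5'-nucleotidase domain family. Cd320 encodes the cell surface receptor that takes up transcobalamin loaded with vitamin B12. Zfp395 encodes a zinc finger protein that binds DNA.

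Total expected counts were 6781952 to 28289498 per library. The knocked-out gene, Il10, had 27.1 to 37.0 normalised counts (counts divided by a size factor per library) in unstimulated libraries, 34.8 to 60.5 with JQ1, 43.0 to 49.0 with IL-10, 53.7 to 74.9 with LPS, 118 to 164 with LPS + JQ1 and 134 to 177 with LPS + IL-10. Whether these reads lie in the deleted part of the gene was not tested, and no wild-type library gives a level to compare. All 7 macrophage markers found of 8 listed were detected, with a summed abundance of 14070 to 29055 TPM (transcript abundance scaled by length and library) in each. Markers of other cells were low. The 5 neutrophil markers summed to 21.1 to 74.0 TPM in unstimulated libraries and to 6.76 to 13.4 with JQ1, with Ly6g at 0 in every library. The 4 B cell markers summed to 2.34 to 5.13 TPM in unstimulated libraries and 0.20 to 0.50 with JQ1. The 3 endothelial markers summed to 7.89 to 9.98 TPM with LPS and to 0.04 to 0.28 with LPS + JQ1. T cell, dendritic cell, fibroblast, mast cell and erythroid markers summed to at most 4.02, 2.61, 10.3, 0.59 and 1.23 TPM in any library. The part of these cell markers in the results below was not tested.

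The windows upstream of 5 of the 6 genes were found in the RefSeq table of build GRCm38.p6, and they are shown because all 5 were lower when LPS was added after IL-10. Zfp395 had no entry. Each line gives the 250 bases before the first listed start, 5' to 3' on the strand of the gene. Capitals mark the GC box (GGGCGG or its complement CCGCCC) and the CCAAT box (CCAAT or ATTGG), searched on both strands.

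Mknk2 promoter: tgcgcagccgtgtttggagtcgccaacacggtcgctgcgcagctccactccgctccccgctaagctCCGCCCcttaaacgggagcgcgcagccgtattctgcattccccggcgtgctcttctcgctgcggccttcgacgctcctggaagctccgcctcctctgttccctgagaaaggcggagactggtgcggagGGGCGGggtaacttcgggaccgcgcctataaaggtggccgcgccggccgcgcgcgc
Narf promoter: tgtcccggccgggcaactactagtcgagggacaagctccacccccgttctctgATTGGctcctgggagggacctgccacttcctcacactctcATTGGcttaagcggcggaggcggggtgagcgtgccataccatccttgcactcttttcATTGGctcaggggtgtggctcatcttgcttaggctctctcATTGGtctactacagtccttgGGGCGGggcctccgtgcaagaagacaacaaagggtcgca
Frat1 promoter: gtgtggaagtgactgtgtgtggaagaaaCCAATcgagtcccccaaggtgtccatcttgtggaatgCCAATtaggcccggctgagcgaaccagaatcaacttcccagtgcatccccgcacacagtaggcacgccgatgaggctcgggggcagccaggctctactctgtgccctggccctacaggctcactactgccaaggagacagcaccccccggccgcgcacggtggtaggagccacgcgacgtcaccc
Nt5dc2 promoter: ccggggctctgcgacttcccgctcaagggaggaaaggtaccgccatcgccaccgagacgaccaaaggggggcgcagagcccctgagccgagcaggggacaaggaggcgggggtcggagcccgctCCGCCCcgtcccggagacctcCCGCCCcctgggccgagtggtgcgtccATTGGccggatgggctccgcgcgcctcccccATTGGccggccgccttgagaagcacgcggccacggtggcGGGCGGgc
Cd320 promoter: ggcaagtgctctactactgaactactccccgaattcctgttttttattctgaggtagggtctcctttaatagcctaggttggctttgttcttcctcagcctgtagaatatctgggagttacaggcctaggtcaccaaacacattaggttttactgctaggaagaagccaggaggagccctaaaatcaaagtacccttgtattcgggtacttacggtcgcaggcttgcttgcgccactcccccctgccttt

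The windows lie at chr10:80676294-80676543 on the minus strand for Mknk2 and on the plus strand for the others, at chr11:121236986-121237235 for Narf, chr19:41829720-41829969 for Frat1, chr14:31130839-31131088 for Nt5dc2 and chr17:33842841-33843090 for Cd320. The Mknk2 window had 2 GC boxes, no CCAAT box and a TATA box (TATAAA) that starts 30 bases before the start (position -30). The Narf window had 4 CCAAT boxes, all as ATTGG, and 1 GC box. At least 4 CCAAT boxes were present in 0.840% of the 32851 windows in the table. The Nt5dc2 window had 3 GC boxes and 2 CCAAT boxes. At least 3 GC boxes were present in 8.47% of windows and at least 2 CCAAT boxes in 10.1%. The Frat1 window had 2 CCAAT boxes, no GC box and a TGACGTC sequence on the opposite strand at position -10, found on either strand in 2.78% of windows. The first Cd320 window had neither box. A second listed start gave Cd320 another window, chr17:33843176-33843425, with 3 GC boxes, 1 CCAAT box and 66.4% G and C, and gave Nt5dc2 one at chr14:31134486-31134735 with 1 GC box, 2 CCAAT boxes and 56.4%. In the printed windows G and C made up 68.4% of the bases for Mknk2, 58.8% for Narf, 62.0% for Frat1, 74.8% for Nt5dc2 and 48.4% for Cd320, against a median of 52.4% over all windows. No window held an E-box (CACGTG), an ETS core (CCGGAAG) or an AP-1 sequence (TGANTCA), which 6.02%, 6.91% and 6.75% of windows hold. These matches describe letters only, and no binding was measured here.

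Mknk2 was the most abundant of the 6 transcripts in unstimulated cells and differed 27.9-fold between LPS + JQ1 and LPS. The gene lies on mm9 chromosome 10 from 80128077 to 80139038 on the minus strand. Normalised counts in mice 1, 2 and 3 were 3035, 3429.9 and 3189 in the unstimulated libraries and 6564, 7088 and 6899.9 in the JQ1 libraries. The LPS libraries had 127, 131 and 98.2, and the LPS + JQ1 libraries 3417, 3081 and 3485. The LPS libraries lay far below all others without IL-10, and the LPS + JQ1 libraries overlapped the unstimulated ones. LPS left 3.70% ± 0.567 (SD, n = 3 pairs) of the unstimulated level, and LPS + JQ1 stood at 104% ± 12.3 of it. The log2 fold change between LPS + JQ1 and LPS was 4.80 ± 0.113 (SE), and between JQ1 and unstimulated cells it was 1.09 ± 0.076. The difference of 0.05 ± 0.077 between LPS + JQ1 and unstimulated cells turned to -0.50 when libraries were scaled by their total counts. In JQ1-treated cells LPS left 48.7% ± 4.57 of the level. In all of these bulk values, fewer expressing cells and less transcript per cell cannot be told apart.

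Narf showed almost no difference with JQ1 in resting cells and a 23.6-fold one during LPS. It lies on mm9 chromosome 11 from 121098567 to 121117170 on the plus strand, and its last 363 bases overlap the start of Foxk2 on the same strand. Unstimulated libraries held 377, 391 and 365 normalised counts, and JQ1 libraries 425, 392 and 431. LPS libraries held 14.1, 9.31 and 13.5, and LPS + JQ1 libraries 283, 303 and 268. The LPS libraries held 9 to 11 reads of Narf each. LPS left 3.28% ± 0.776 of the unstimulated level, whereas LPS + JQ1 libraries kept 75.4% ± 2.06, below every unstimulated library. The kept share depended on the scaling, since the log2 fold change of -0.40 against unstimulated cells became -0.95 with total counts. The log2 fold change of LPS + JQ1 against LPS was 4.56 ± 0.278, and that of JQ1 against unstimulated cells was 0.15 ± 0.092, which changed sign to -0.07 with log2(TPM + 0.1). Foxk2 had mean normalised counts of 499 in unstimulated cells, 573 with LPS and 587 with LPS + JQ1, and was not lower with LPS.

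Frat1 was close to undetected with LPS. The expected counts before scaling were 1, 0 and 2 in the LPS libraries, each under the floor of 3 counts per library, against 281, 143 and 317 in unstimulated cells. After scaling, unstimulated libraries stood at 217, 242 and 213, JQ1 libraries at 372, 519 and 395 and LPS + JQ1 libraries at 16.6, 22.1 and 19.7. JQ1-treated resting cells were all above the unstimulated libraries, with a log2 fold change of 0.94 ± 0.165. The ratio of LPS + JQ1 to LPS was 16.2 (95% exact interval from counting error alone 5.24 to 81.0), and the ratio of unstimulated cells to LPS was 182 (62.0 to 884). With LPS + JQ1 the level reached 8.68% ± 0.905 of the unstimulated one, so most of the transcript was still missing. Frat1 lies on mm9 chromosome 19 from 41904658 to 41905299 and is typed as a pseudogene in GENCODE vM1, although the deposited table lists it under a RefSeq mRNA. Its near copy Frat2 lies next to it, from 41920468 to 41922622 on the opposite strand. Estimated counts of Frat1 were not whole in several libraries, so reads shared by the near copies make both genes uncertain.

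Nt5dc2 differed most with JQ1 in cells that saw no LPS. Normalised counts were 501, 496 and 483 in unstimulated libraries, against 3631, 3580.3 and 3562 in JQ1 libraries. LPS libraries had 120.2, 152 and 114, against 1178, 1123 and 1187 in LPS + JQ1 libraries. The 4 groups did not overlap. The log2 fold change was 2.87 ± 0.071 with JQ1 in resting cells and 3.16 ± 0.103 during LPS. LPS left 26.1% ± 3.95 of the unstimulated level without pretreatment and 32.4% ± 0.984 of the JQ1 level after JQ1. The LPS + JQ1 libraries stood at 236% ± 9.68 of unstimulated cells, so the level exceeded the resting one rather than returning to it. The size of this excess depended on the scaling, with a log2 fold change of 1.24 that became 0.68 with total counts. The gene lies on mm9 chromosome 14 from 31948039 to 31952307 on the plus strand, and its last 109 bases overlap Stab1 on the opposite strand. Reads of the shared bases were counted without regard to strand. Stab1 had mean normalised counts of 14626 in unstimulated cells and 17194 with JQ1, beside 493 and 3591 for Nt5dc2. The expected counts of Nt5dc2 were not whole (649.35, 292.65 and 719.81 in unstimulated libraries). Whether reads of Stab1 entered them was not tested.

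Cd320 had the lowest resting level of the 6 and the smallest loss with LPS. Unstimulated libraries had 44.7, 40.6 and 42.2 normalised counts, and JQ1 libraries 294, 252 and 261. They were 24.0, 27.9 and 31.9 with LPS and 243, 277 and 316 with LPS + JQ1. The JQ1 and LPS + JQ1 libraries overlapped each other and lay far above the rest. The log2 fold change was 2.65 ± 0.175 with JQ1 in resting cells and 3.31 ± 0.214 during LPS. LPS left 66.0% ± 11.2 of the unstimulated level, while LPS + JQ1 stood at 658% ± 105 of it. The size of the loss with LPS depended on the scaling, with a log2 fold change of -0.61 ± 0.241 that became -1.54 with total counts. After JQ1 the log2 fold change with LPS was 0.05 ± 0.136, which became -0.33 under total-count scaling. Cd320 lies on mm9 chromosome 17 from 33980036 to 33986719 on the plus strand.

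Zfp395 was lost almost completely with LPS and was the 1 gene of the 6 whose JQ1 libraries lay below the unstimulated ones. Unstimulated libraries had 896, 993 and 891 normalised counts and JQ1 libraries 794, 857 and 870.0, lower in all 3 mice (log2 fold change -0.14 ± 0.091). They were 2.83, 6.20 and 2.46 with LPS and 40.9, 35.8 and 48.0 with LPS + JQ1. The log2 fold change between the latter groups was 3.36 ± 0.484. On the scale of the resting level these were 0.405% ± 0.191 with LPS and 4.52% ± 0.892 with LPS + JQ1, so the high fold belongs to a transcript that stayed scarce. The gene spans mm9 chromosome 14 from 65977513 to 66017767 on the plus strand.

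**Figure D1:**
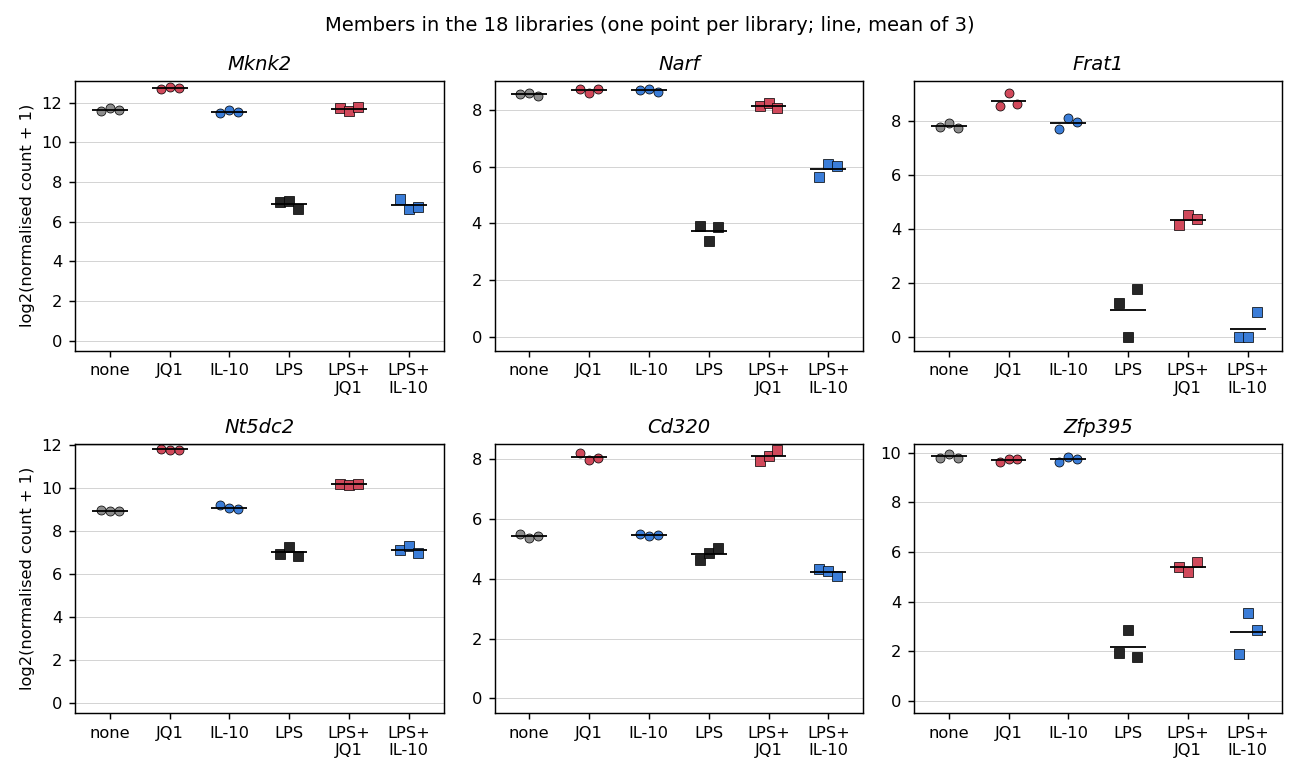
Each panel plots log2(normalised count + 1) of 1 gene in the 18 libraries by group (circles without LPS, squares with LPS, lines at the mean of 3 libraries). On this scale LPS + JQ1 libraries reach the unstimulated level for Mknk2, which total-count scaling put lower (log2 fold change -0.50). They exceed it for Nt5dc2 and Cd320 and stay far below it for Frat1 and Zfp395. The LPS + IL-10 libraries of Narf lie between its LPS and LPS + JQ1 libraries.

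On the scale of TPM, which divides by transcript length and so allows genes to be compared, mean levels in unstimulated cells were 135 for Mknk2, 55.4 for Nt5dc2, 31.4 for Zfp395, 12.6 for Frat1, 12.3 for Narf and 2.89 for Cd320. With LPS the order changed, to 8.44 for Nt5dc2, 2.90 for Mknk2, 1.12 for Cd320, 0.233 for Narf, 0.0733 for Zfp395 and 0.0433 for Frat1. With LPS + JQ1 Mknk2 stood at 101 TPM and Nt5dc2 at 93.9, followed by Cd320 at 13.7, Narf at 6.67, Zfp395 at 1.02 and Frat1 at 0.803. The Frat1 and Narf levels in unstimulated cells overlapped between libraries (12.4 to 13.2 and 12.2 to 12.4 TPM).

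The highest single position by log2 fold change, among 6125 genes averaging 100 or more normalised counts that passed the test of LPS + JQ1 against LPS, belonged to Mknk2. Narf was at 2, Zfp395 at 13, Cd320 at 16 and Nt5dc2 at 21. Frat1 is not placed, since its LPS libraries were under the floor and its counting interval of 5.24 to 81.0 spans the 27.9-fold of Mknk2. The next genes outside the choice were Frat2 (log2 fold change 3.89), C2cd2l (3.86) and 6430548M08Rik (3.85). Among 4657 such genes in JQ1 against unstimulated cells, Nt5dc2 was at 1 and Cd320 at 2, followed outside the choice by Mt2 (2.61), Larp1b (2.34) and Sesn3 (2.31), while Mknk2 was at 110 and Frat1 at 195. Of all genes tested, 24.4% were higher and 32.9% lower with JQ1 during LPS, and 21.9% were higher and 23.7% lower with JQ1 in resting cells. These positions follow from how the genes were picked. The split depended on the scaling: 42.5% of called genes were higher with JQ1 during LPS in the test used here and 64.9% with total-count scaling, and the shares in resting cells were 48.0% and 26.8%. The median log2 fold change of 12251 expressed genes during LPS was -0.10 and became 0.28 with total counts, a shift much smaller than the fold changes of the 6 genes.

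The comparison that shares no library with the choice was that of LPS after IL-10 pretreatment. In it, LPS + IL-10 libraries were compared with IL-10 libraries. All 6 genes were lower with LPS (DESeq2 Wald test, adjusted p under 0.05), against 33.8% of the 14326 genes tested. Among genes lower with LPS without pretreatment the share was 89.2%, so nothing is read from this count. Mknk2 had normalised counts of 2915, 3137 and 2924 with IL-10 and 143, 98.8 and 108 with LPS + IL-10. It fell by 4.68 on the log2 scale (SE 0.113), with an adjusted p too small for the software to hold. Zfp395 had counts of 790.0, 912 and 848 with IL-10 and 2.71, 10.6 and 6.31 with LPS + IL-10. Its log2 fold change was -7.05 ± 0.371 (DESeq2 adjusted p 1.74e-79), a 133-fold difference. Only 8 of the 14326 genes had a lower value. Frat1 had 1178 reads over the IL-10 libraries and 1 over the LPS + IL-10 libraries, a ratio of 584 with a counting interval of 105 to 23099 (DESeq2 adjusted p 6.84e-14).

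The other 3 genes fell less. Narf had 415, 432 and 399 normalised counts with IL-10 and 48.7, 66.9 and 64.0 with LPS + IL-10 (log2 fold change -2.79 ± 0.142, DESeq2 adjusted p 1.82e-84). Nt5dc2 went from 587, 533 and 525 to 137, 158 and 127 (-1.99 ± 0.102, adjusted p 1.93e-83 by DESeq2). Cd320 went from 44.8, 42.3 and 43.2 to 18.9, 18.2 and 16.2 (-1.31 ± 0.266, adjusted p 2.04e-06 by DESeq2). The groups did not overlap for any of the 6 genes, and every mouse showed the direction. The share of all genes that separate so was not counted, so nothing is read from this. Because genes restored by JQ1 are by choice genes that LPS lowered, the nearer background is the 4928 genes lower with LPS without pretreatment, of which 89.2% were also lower with LPS after IL-10. Of the 3491 genes higher with JQ1 during LPS the share was 65.7%. Called genes were higher in 49.6% of cases in this comparison and in 21.0% with total-count scaling, which moved the median of all expressed genes from -0.05 to -0.88. The 6 genes were lower under every alternative run. When only the groups compared entered the fit, the DESeq2 adjusted p was 4.77e-55 for Narf, 1.29e-41 for Nt5dc2 and 0.000559 for Cd320.

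**Figure D2:**
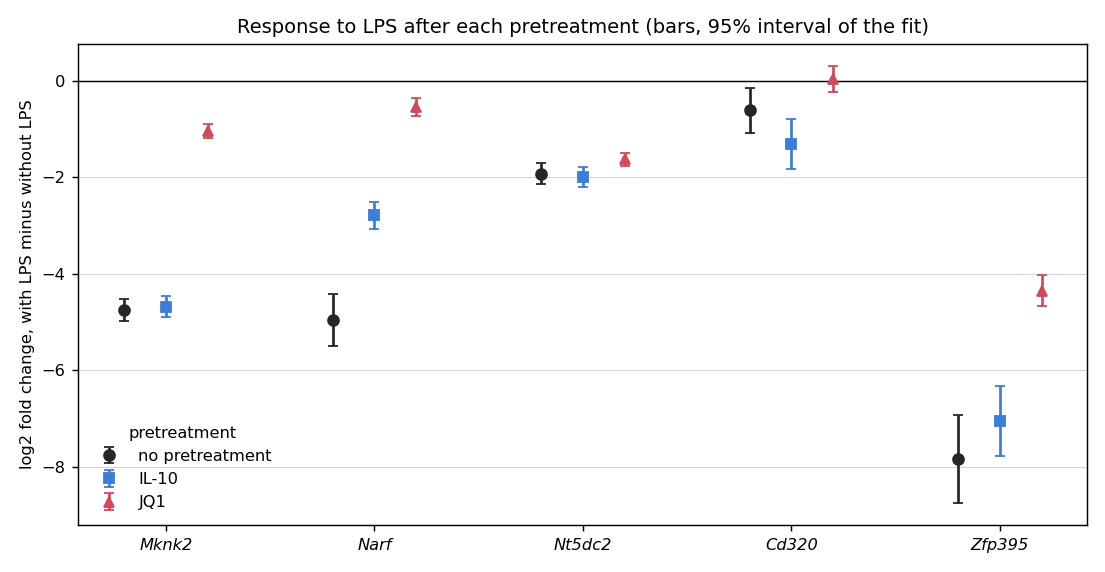
The log2 fold change between cells with and without LPS is plotted for 5 genes after no pretreatment, IL-10 or JQ1, with 95% intervals of the fit. For Mknk2 and Nt5dc2 the values without pretreatment and after IL-10 nearly coincide (-4.75 and -4.68, -1.92 and -1.99), while for Narf the loss after IL-10 (-2.79) lies between that without pretreatment (-4.96) and that after JQ1 (-0.55). Frat1 is left out because LPS libraries held at most 2 reads of it.

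The question of whether IL-10 restored any of these genes as JQ1 did was put to LPS + IL-10 against LPS, a comparison that shares the LPS libraries with the choice. A gene picked for low LPS libraries leans toward a higher value in any group set against them, so these values are a description. The threshold was passed by 1 of 5 genes, Narf, beside 17.2% of the 11448 genes tested (8.38% higher), and nothing is read from that count. Narf was higher in all 3 mice, by a log2 fold change of 2.32 ± 0.297 or 4.99-fold, which was 0.85 on log2(TPM + 1). Narf with LPS + IL-10 thus reached 59.9 ± 9.77 normalised counts (mean ± SD, n = 3), against 12.3 ± 2.63 with LPS and 285 ± 17.6 with LPS + JQ1, and the 3 ranges did not overlap. The LPS libraries held 30 reads of Narf in all. Foxk2, which overlaps Narf, had mean normalised counts of 573 with LPS and 683 with LPS + IL-10.

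The values of the other genes were nearer 0. Mknk2 had a log2 fold change of -0.03 (95% interval -0.31 to 0.24), a value whose sign changed with total-count scaling, and Nt5dc2 one of 0.09 (-0.16 to 0.34). Zfp395 was at 0.67 (-0.48 to 1.82), on 2.83 to 6.20 normalised counts per LPS library. Cd320 was lower in all 3 mice, at -0.68 (-1.27 to -0.09), with no overlap of the groups. Frat1 was at or under 3 counts in both groups and no fold is given. The share of higher genes among those called was 48.7% here and 71.1% with total-count scaling.

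None of the 6 genes passed in IL-10 against unstimulated libraries, which the choice shares (DESeq2 Wald test), where 2.81% of 12727 genes passed. At an unadjusted p under 0.05 there was 1, Nt5dc2, with a log2 fold change of 0.16 ± 0.076 (DESeq2 adjusted p 0.416), and edgeR and limma also called 0. The 95% intervals were those of Mknk2 (-0.25 to 0.05), Narf (-0.03 to 0.32), Zfp395 (-0.30 to 0.06) and Frat1 (-0.21 to 0.44), and that of Cd320 ran from -0.36 to 0.41. The interaction, which asks whether the effect of IL-10 differed with and without LPS, takes in the unstimulated and LPS libraries that picked the genes and is likewise described only. It was past the threshold for 1 of 5 genes, Narf (2.17 ± 0.311, and 0.67 on log2(TPM + 1)), beside 7.44% of 10808 genes.

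Related genes were followed from lists that surround each of the 6, leaving out the 6 themselves. Pdcd4, Icmt and Mut were named for a large called change with JQ1 during LPS. Tcf7l2, Nt5c2 and Mtrr were named for one in resting cells. Those values are therefore a description. Of all genes tested, 21.9% were higher and 23.7% lower with JQ1 in resting cells. During LPS these shares were 24.4% and 32.9%. The lists were not tested as sets. Among 17 genes around MNK2 and eIF4E, 11 were higher and 1 lower with JQ1 in resting cells, with a median log2 fold change of 0.28 beside -0.01 for all genes tested. During LPS, 6 were higher and 8 lower (median -0.11, all genes -0.11). The direction of this list depended on the scaling, since total counts gave 6 higher and 4 lower in resting cells and 8 higher and 1 lower during LPS. Mknk1, the other MNK kinase, had 1166, 1252 and 1212 normalised counts in unstimulated libraries and 2065, 2101 and 2100.0 in JQ1 libraries. LPS libraries had 727, 719 and 669, and LPS + JQ1 libraries 993, 838 and 940.5. It rose with JQ1 by 0.79 ± 0.069 in resting cells (DESeq2 adjusted p 6.33e-29) and by 0.39 ± 0.077 during LPS (adjusted p 1.30e-06 by DESeq2), beside 1.09 and 4.80 for Mknk2. Pdcd4, which restrains the helicase eIF4A, rose by 3.06 ± 0.242 during LPS, from 9.90, 20.7 and 28.2 to 167, 179 and 155. It was named for this change, so no test is given. Eif4e, the substrate of MNK2, was at 0.00 in resting cells and -0.24 ± 0.107 during LPS, a direction that was reversed with total counts and TPM and a call that was lost with edgeR and TMM.

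Frat2 moved with Frat1. It had 173, 240.2 and 179.7 normalised counts in unstimulated libraries and 364, 448 and 375 in JQ1 libraries. LPS libraries had 0, 5.17 and 0, and LPS + JQ1 libraries 19.9, 35.8 and 33.2. It rose with JQ1 by 1.02 ± 0.160 in resting cells (DESeq2 adjusted p 1.54e-09) and by 3.89 ± 0.682 during LPS (DESeq2 adjusted p 4.45e-08), the latter against a group with 5 reads. The resting call was lost with log2(TPM + 0.1) (0.80). Of 17 genes of GSK3 and Wnt signalling tested, 6 were higher and 3 lower with JQ1 in resting cells and 9 higher and 3 lower during LPS (medians 0.08 and 0.26, all genes -0.01 and -0.11). With total counts these were 5 and 5, and 13 and 0. Gsk3b, the kinase that FRAT proteins bind, rose by 0.44 ± 0.056 and 0.26 ± 0.058. Axin2, a standard transcriptional target of Wnt signalling, had at most 5.40 normalised counts in any library. Tcf7l2, a nuclear partner of beta-catenin, fell by 1.13 ± 0.107 in resting cells and had a value of -0.23 ± 0.097 during LPS, where the call was lost with edgeR and TMM and the sign changed with total counts and TPM.

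Of the 2 genes related to Zfp395 by sequence, Zfp704 fell from 1320, 1441 and 1277 normalised counts in unstimulated cells to 55.1, 50.7 and 38.1 with LPS. It stood at 156, 154 and 121 with LPS + JQ1. It rose with JQ1 by 0.38 ± 0.094 in resting cells (DESeq2 adjusted p 0.000229) and by 1.59 ± 0.176 during LPS (DESeq2 adjusted p 1.17e-18). The resting call was lost with log2(TPM + 1) (0.16) and log2(TPM + 0.1) (0.16). After IL-10 it was lower with LPS by a log2 fold change of -4.76 ± 0.156. The other gene, Slc2a4rg-ps, passed in neither JQ1 comparison. The effect of JQ1 differed with and without LPS (interaction) for 41.5% of all genes tested and for 11 of the 17 related genes named by rule and tested, a share from which nothing is read because some were named for a large JQ1 change.

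Around Nt5dc2, 1 of 8 nucleotidase genes tested was higher and 1 lower with JQ1 in resting cells. During LPS, 2 were higher and 2 lower (medians -0.06 and 0.19, all genes -0.01 and -0.11). With total counts these were 0 and 1, and 5 and 2. Nt5dc3 carried the largest change. Unstimulated libraries held 343, 319.6 and 338 normalised counts of it, JQ1 libraries 418, 431 and 392, LPS libraries 94.7, 106.5 and 151 and LPS + JQ1 libraries 415, 453 and 433. It rose with JQ1 by 1.88 ± 0.130 during LPS (DESeq2 adjusted p 7.12e-46) and by 0.30 ± 0.108 in resting cells (DESeq2 adjusted p 0.0128, a call lost with total counts, with TPM and without JQ1 replicate 2). Nt5dc1 passed in neither comparison (-0.15 ± 0.142 and -0.21 ± 0.152, the latter of opposite sign with total counts and TPM), although with TPM it passed as lower in resting cells (-0.32 on log2(TPM + 1)). Nt5c2 fell by 0.36 ± 0.094 in resting cells, with a value during LPS of 0.13 ± 0.107, which passed as higher with edgeR (0.23), TMM (0.25), total counts (0.50) and TPM (0.38 on log2(TPM + 1)).

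Around Cd320, 3 of 11 genes of vitamin B12 uptake and use tested were higher and 3 lower with JQ1 in resting cells. During LPS, 6 of 12 were higher and 3 lower (medians 0.09 and 0.20, all genes -0.01 and -0.11). With total counts these were 1 and 4, and 8 and 0. Tcn2, which encodes the transcobalamin that CD320 binds, did not pass in either comparison (-0.02 ± 0.077 and -0.15 ± 0.080), but it passed as lower in resting cells with total counts (-0.20) and TPM (-0.22 on log2(TPM + 1)), and its sign during LPS changed with the same settings, passing as higher with total counts (0.22). Mtr, the B12-dependent methionine synthase, rose by 0.43 ± 0.084 and 0.53 ± 0.105, the former not passing with TPM (0.20 on log2(TPM + 1)). Mut, the mitochondrial B12-dependent mutase, rose by 0.32 ± 0.119 and 0.77 ± 0.145. Its resting call was lost with total counts (0.14), with TPM (0.12 on log2(TPM + 1)) and without unstimulated replicate 1 (0.27) or 2 (0.28) or JQ1 replicate 1 (0.27). Mtrr, the reductase that keeps methionine synthase active, fell by 0.48 ± 0.142 in resting cells and rose by 0.58 ± 0.187 during LPS. The log2 fold changes of Cd320 were 2.65 and 3.31.

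Around Narf, 5 of 16 genes of the lamins, prelamin A processing and iron-sulphur assembly were higher and 6 lower with JQ1 in resting cells. During LPS, 8 were higher and 4 lower (medians -0.03 and 0.13, all genes -0.01 and -0.11). With total counts these were 3 and 7, and 10 and 0. Narfl, the relative of Narf that serves iron-sulphur assembly, fell by 0.39 ± 0.098 in resting cells and stood at -0.25 ± 0.107 during LPS, where the call was lost with edgeR and TMM and the sign changed with total counts and TPM. Lmna, which encodes prelamin A, fell by 1.19 ± 0.106 and 0.47 ± 0.106, the latter not passing with total counts (-0.09) or TPM (-0.18 on log2(TPM + 1)). Icmt, which methylates prelamin A, rose by 0.65 ± 0.092 and 1.73 ± 0.102.

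**Figure D3:**
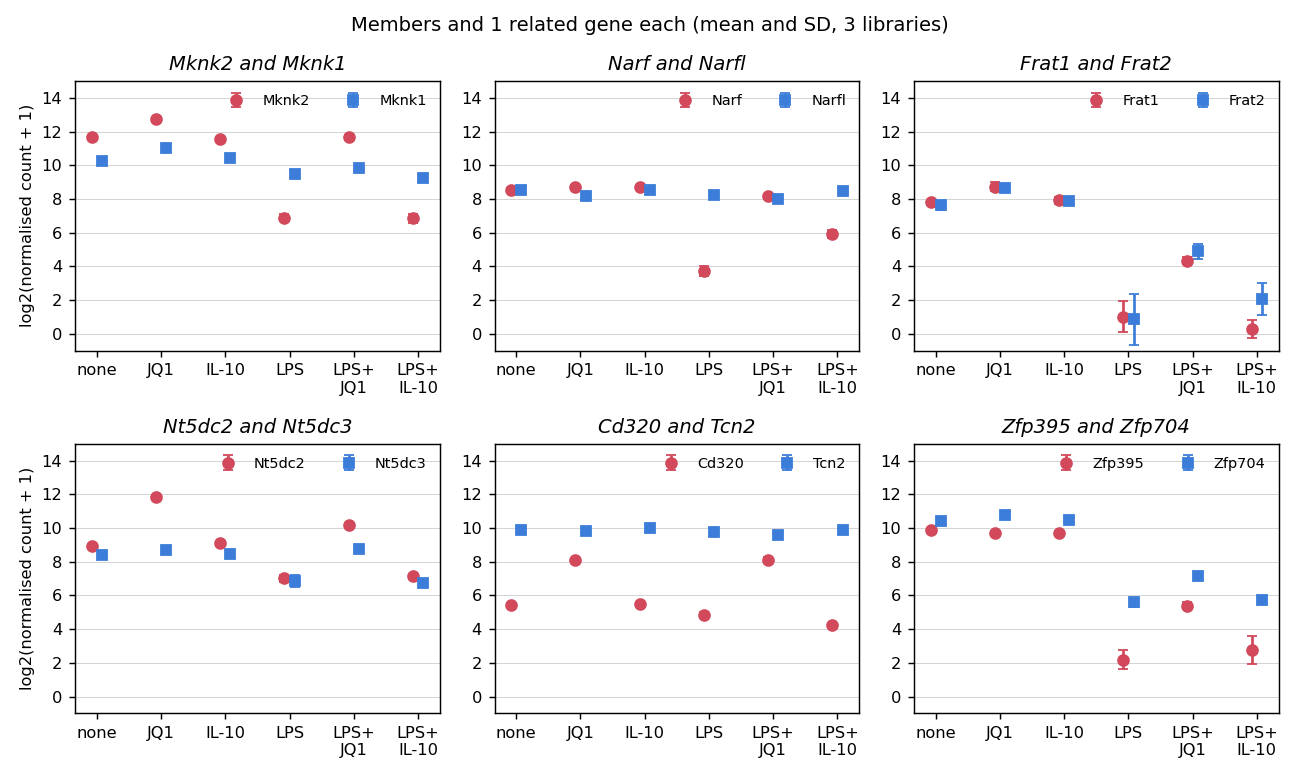
Each panel sets 1 of the 6 genes beside a related gene, as mean log2(normalised count + 1) with SD over 3 libraries per group. Frat2 follows Frat1, a near copy with which it may share reads, and Zfp704 follows Zfp395 in their loss with LPS. Mknk1, Narfl, Nt5dc3 and Tcn2 vary far less than Mknk2, Narf, Nt5dc2 and Cd320.

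Across the 18 libraries, log2(normalised count + 1) of Frat1 and Zfp395 followed each other most closely among the 6 (Pearson r 0.971), and Cd320 and Zfp395 least (r 0.405). The genes most like each of the 6, among 8378 that averaged 100 or more normalised counts, were Il6st (r 0.996), Ankrd10 and Ulk1 for Mknk2, Lrrc8a (0.982), Eif2ak1 and Agfg2 for Narf, and Sesn1 (0.994), Rassf3 and Rad50 for Frat1. They were Faf1 (0.989), Oaz2 and G6pdx for Nt5dc2, Adpgk (0.987), Tob1 and Acadvl for Cd320, and Mnt (0.996), Flcn and Tmem104 for Zfp395. The libraries share the 6 group means, so such values mostly describe how the groups are ordered and are given without a p.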

How the data were processed

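RNA was measured in 18 libraries of Il10-/- BMDMs, 6 groups of 3, grouped by their titles. The authors made stranded libraries depleted of ribosomal RNA, sequenced 50-base paired ends, extracted reads with TagDust, used STAR for alignment to mm9 and ran RSEM 1.2.31 for quantification with default settings, which ignore strand. The deposited expected counts are RSEM's estimated reads per gene (5.40% to 6.63% of values per library were not whole) and were rounded. TPM, deposited beside the counts, is RSEM's abundance scaled for transcript length. FPKM columns were left unused.

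DESeq2 1.42.0 (R 4.3.3) gave Wald tests for every gene from 1 model of the 18 libraries by group, and a gene was called at a p under 0.05 after Benjamini-Hochberg adjustment. "Normalised counts" are counts divided by DESeq2's median-of-ratios size factors. The script was tested on simulated data. Alternatives used edgeR 4.0.16, limma 3.58.1 on log2(TPM + 1) or log2(TPM + 0.1), other scalings, filters, an offset from the deposited effective lengths, the lane, the replicate number as a block, only the groups compared, and each library left out. A floor of 3 counts in a library is 0.106 to 0.442 CPM. Floors and counting intervals cover counting error only.

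The 6 genes and the lists were chosen with earlier results of these data known. Named in addition were, by rule, the nearest relatives in each list, the gene of each list with the largest called change in either JQ1 comparison (mean normalised count of at least 100), the 3 best-correlated genes per member and the next 3 genes outside the choice. Foxk2 and Stab1 were added after their overlap was seen. Of the nucleotidases listed, 9 of 10 were found, and positions come from GENCODE vM1 on mm9.

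Replicate numbers pair the libraries, since the labels call the groups biologically matched samples from 3 mice. The correlation of same-numbered deviations from group means averaged -0.01 to 0.24 over the comparisons. All replicate 1 libraries were on lane 7 and all replicate 3 libraries on lane 8, with replicate 2 on lane 7 without LPS and lane 8 with it. Pairs of replicates differed by more than sampling noise (chi-square per degree of freedom 3.97 to 28.3 over 18 pairs), so none was a duplicate. The highest values were those of replicate 3 against replicates 1 and 2, with LPS (24.2 and 28.3) and with LPS + IL-10 (28.0 and 26.9). Every other pair was at 10.5 or lower, so replicate 3 stood apart in these groups. The cause was not tested.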

Additional observations from a re-analysis of the deposited data

Results flagged for a closer look

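The effect of IL-10 on Narf had an interaction with LPS of 2.17 on the log2 scale (0.67 on log2(TPM + 1)). With LPS, Narf was higher after IL-10 in all 3 mice, and without LPS the log2 fold change was 0.14. The LPS and unstimulated libraries behind this value also picked the gene for a low level with LPS, which leans the value upward, so it is no independent test.

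With JQ1, Zfp395 was lower in all 3 mice without LPS, by a log2 fold change of only -0.14 ± 0.091 (95% interval -0.32 to 0.04). That interval spans both signs, so a fall with JQ1 in resting cells is not shown. With LPS, Zfp395 was higher with JQ1 in all 3 mice (log2 fold change 3.36). Whether the effect of JQ1 differed with and without LPS was not tested, because these libraries picked the gene.

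Among the related genes, the effect of JQ1 was larger with than without LPS for Frat2 (interaction 2.86, DESeq2 adjusted p 0.000204, not passing on log2(TPM + 1) at 0.44), Pdcd4 (2.52), Nt5dc3 (1.58), Zfp704 (1.21), Icmt (1.08) and Mut (0.45, DESeq2 adjusted p 0.0413). The call for Mut was lost without independent filtering and without any of 8 libraries in turn (0.35 to 0.45). Mtrr (1.06) was lower with JQ1 without LPS and higher with LPS. For Tcf7l2 (0.90) and Lmna (0.72) the value with JQ1 was less negative with LPS, and for Nt5c2 (0.49) it was negative without LPS and 0.13 with LPS. For Mknk1 the interaction was -0.40 (DESeq2 adjusted p 0.00044), a sign that turned with total-count scaling and TPM. Some of these genes were named for a large change with JQ1. The interaction passed for 41.5% of all genes tested.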

How the results depend on the processing

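The count of the 6 genes lower with LPS after IL-10 was 6 under every alternative, and Narf kept its direction with IL-10 during LPS (0.85 on log2(TPM + 1) to 2.44) and in the interaction (0.67 to 2.29). With the replicate number as a block, which pairs libraries of 1 mouse, the same numbers of genes passed as without it. They were 6 of 6 with LPS after IL-10, 0 of 6 with IL-10 without LPS, 1 of 5 with IL-10 during LPS and 1 of 5 in the interaction. All but the first of these comparisons share libraries with the choice. The block moved no count of calls by over 1.5 times (IL-10 without LPS, 447 genes). With IL-10 during LPS, 2 of 5 genes passed with limma on log2(TPM + 0.1), where Cd320 passed (-0.49). Genes called with IL-10 without LPS numbered 358, against 230 with edgeR, 192 and 116 with limma on log2(TPM + 1) and log2(TPM + 0.1), and 168 to 374 with 1 library left out (168 without IL-10 replicate 1, 230 without unstimulated replicate 3). With IL-10 during LPS they numbered 1968, against 1089 with only the groups compared. The cause was not tested. Between LPS + JQ1 and LPS, Zfp395 was at 0.91 and Narf at 2.64 on log2(TPM + 1), where the pseudocount shrinks scarce transcripts by construction. Few reads of Frat1 and Zfp395 after LPS limit their folds.

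Values near 0 changed sign. Total counts, log2(TPM + 1) and log2(TPM + 0.1), in that order, gave 0.0595, 0.0595 and 0.0758 for Mknk2 with IL-10 during LPS, and 0.0306, 0.00861 and 0.0269 for the interaction of Nt5dc2. With JQ1 during LPS they gave 0.139, 0.0708 and 0.0752 for Eif4e, 0.128, 0.0534 and 0.0578 for Narfl, 0.165, 0.0821 and 0.103 for Nt5dc1, 0.224, 0.147 and 0.15 for Tcn2 and 0.149, 0.0721 and 0.0786 for Tcf7l2, and 0.152, 0.0962 and 0.110 for the JQ1 interaction of Mknk1. Eif4e with JQ1 in resting cells was -0.173, -0.172 and -0.189, -0.00482 with edgeR, -0.0085 with TMM, -0.000232 with the length offset and -0.0075 with only the groups compared. With 1 library left out, Mknk2 ran from -0.189 to 0.0579 with IL-10 during LPS and from -0.0857 to 0.161 in the interaction, Nt5dc2 from -0.155 to 0.0835 in the interaction, Cd320 from -0.00215 to 0.0660 with IL-10 without LPS, and Eif4e from -0.0515 to 0.0655 and Tcn2 from -0.0380 to 0.0212 with JQ1 in resting cells.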
